A study of Cricetiscus sungorus with 16 samples.

Results

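Transcripts of the core circadian clock were followed in the ovaries of Siberian hamsters reared in long or short days. The 10 transcripts were chosen by identifier, not by any measured value: Arntl (NM_007489), Clock (NM_007715), Per1 (NM_011065), Per2 (NM_011066), Per3 (NM_011067), Cry1 (NM_007771), Cry2 (NM_009963), Nr1d1 (NM_145434), Nr1d2 (NM_011584) and Dbp (NM_016974). Earlier results of these data were known when the set was chosen. The transcripts are 10 of 33272 transcript identifiers on the mouse array that was used, and all 10 were among the 20141 identifiers tested. Female hamsters were gestated and kept either in long days (LD), with 16 h of light per day, or in short days (SD), with 10 h. Ovaries were collected after CO2 euthanasia at 3 or 8 wk of age, which gave the groups LD 3 wk, LD 8 wk, SD 3 wk and SD 8 wk. Each group held 4 hamsters, and the RNA of both ovaries of a hamster went onto 1 single-colour array, for 16 arrays on 4 slides. The study asked whether day length altered ovarian gene expression at either age, and which transcripts changed with age under each day length. For the SD hamsters of 8 wk the labels conflict, since the title and treatment fields say 16 h and the description says 10 h, and they were taken as 10 h. The labels do not give the time of day at which hamsters were killed, so the phase of the light cycle at sampling is unknown for every group.

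The mammalian clock is a feedback loop of transcription. The proteins ARNTL (also called BMAL1) and CLOCK pair up and switch on the Per and Cry genes, whose products gather and shut off that same pair. The nuclear receptors NR1D1 and NR1D2 (REV-ERB alpha and beta) are switched on by the pair as well and repress Arntl, while DBP is a transcription factor that carries the rhythm to output genes. As a result Arntl transcript peaks in most tissues at about the opposite time of day to Nr1d1, Nr1d2, Dbp and Per transcripts. In the rodent ovary the clock runs in granulosa, theca and luteal cells and is known for its link to the timing of gonadotropin responses and ovulation.

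Hamster RNA gave signal well above background on 58.0% to 75.7% of the probes of an array, and the arrays' 75th percentiles of intensity lay between 269 and 1007. Slide 1 was the dimmest, at 370 or less. Its arrays also had 775 to 1278 spots flagged as outliers, against 64 to 207 on the other slides. Slides 1 and 2 were each scanned on a day of their own, and slides 3 and 4 on the same day. No spot was saturated, no pair of arrays held identical signals, and the highest correlation between 2 arrays was 0.992. Each slide carried 1 hamster of each group, so replicates 1 to 4 below are the hamsters of slides 1 to 4. Every group held the same place on all 4 slides, so place and group cannot be told apart. The probes were made for mouse, and whether the hamster counterpart of each transcript gave the signal was not tested. Whole ovaries were used, and in such bulk samples fewer cells of a type and less RNA per cell cannot be told apart. Ovarian cell type markers were not matched here, because no table pairing the array's identifiers with gene symbols was used.

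The 10 clock transcripts have 17 probes on the array. Of these, 15 passed the detection filter and were well above background on all 16 arrays. The other 2 were the second Per2 probe, well above background on 0 arrays, and the second Cry2 probe, well above background on 1 array. Because each transcript had a detected probe, all were tested, and the brightest probe stood for its transcript. A level is given below as log2 of the intensity minus the array's 75th percentile. Levels of different probes are not comparable with one another.

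**Figure D1:**
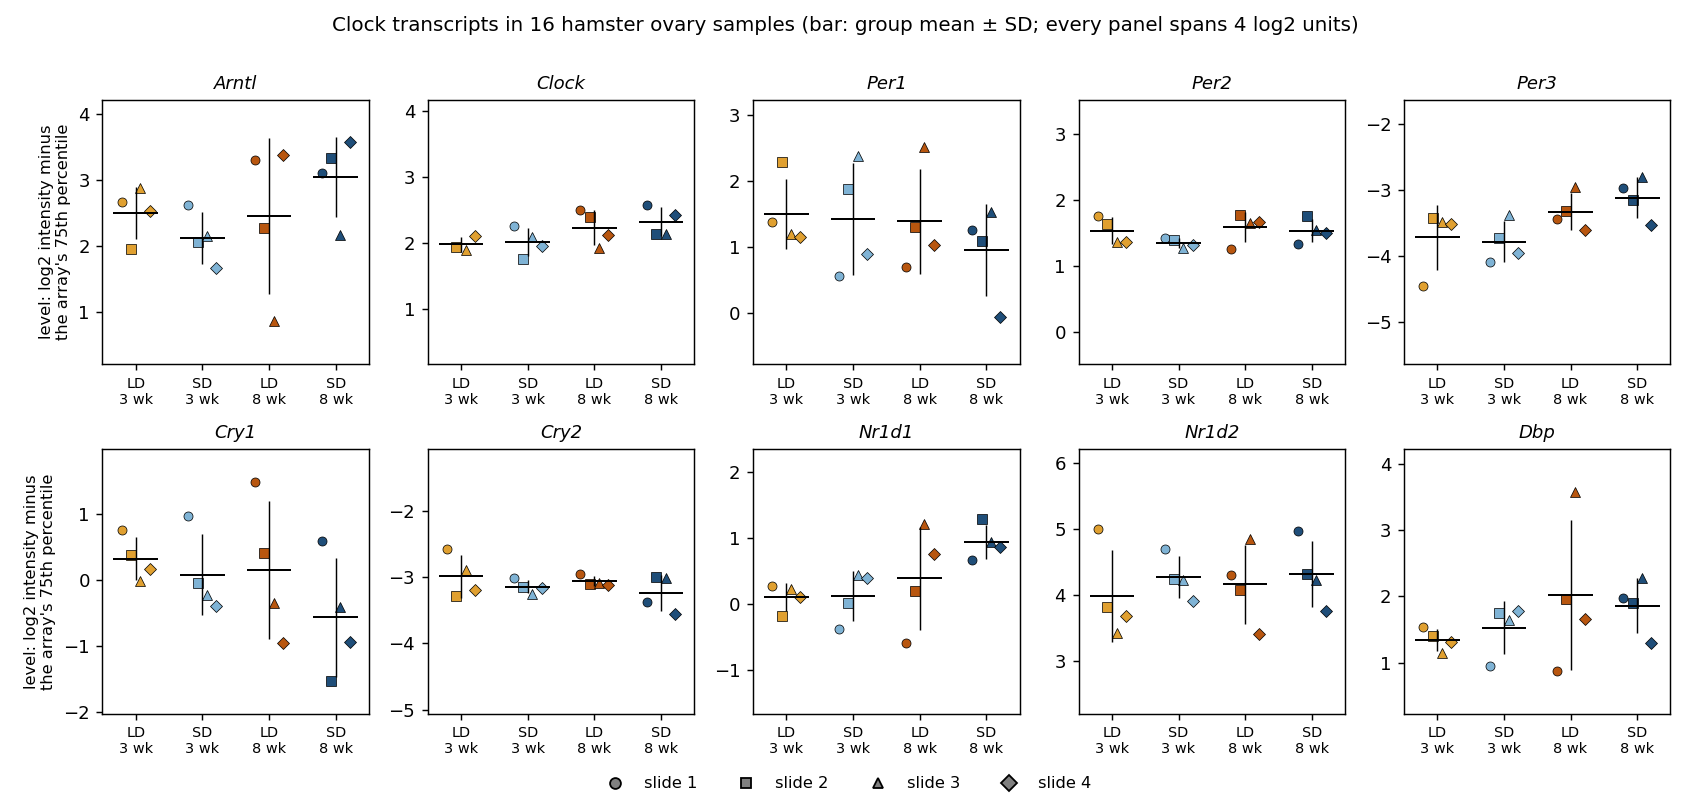
The 10 panels plot the level of each clock transcript (vertical axis, log2 intensity minus the array's 75th percentile) in each hamster, by group (horizontal axis). Symbols mark the slide, horizontal bars the group mean and vertical lines the SD. LD 8 wk replicate 3, the triangle among the LD 8 wk symbols, has the lowest Arntl level (0.86) and the highest Dbp (3.58) and Per1 (2.52) levels of the 16 arrays.

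No clock transcript differed between groups at an adjusted p under 0.05 in limma's fit without the slide, in any of the 5 comparisons. Between SD and LD at 3 wk, 0 of 10 were called against 0.0% of all transcripts tested, and 0 of 10 had an unadjusted p under 0.05 against 1.64%. Between SD and LD at 8 wk, 0 of 10 were called against 0.958%, and 0 of 10 had an unadjusted p under 0.05 against 6.94%. From 3 to 8 wk in LD, 0 of 10 were called against 2.98%, and 0 of 10 had an unadjusted p under 0.05 against 13.4%. From 3 to 8 wk in SD, 0 of 10 were called against 9.16%, while Per3 and Nr1d1 had an unadjusted p under 0.05, 2 of 10 against 20.4%. For the interaction, in which the LD age change is subtracted from the SD age change, 0 of 10 were called against 0.0596%, and 0 of 10 had an unadjusted p under 0.05 against 3.05%.

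Arrays of the same slide deviated together from their group means, so the fit was also run with the slide as a block. It called Per3 and Nr1d1 higher at 8 than at 3 wk in SD, which is 2 of 10 clock transcripts against 23.1% of all transcripts, a share near the background. With the block, 5 of 10 had an unadjusted p under 0.05 in that comparison, namely Arntl, Clock, Per3, Cry1 and Nr1d1, against 34.4%. The other comparisons still had 0 of 10 called, against 0.0% for SD and LD at 3 wk, 2.62% at 8 wk, 11.9% for the age change in LD and 0.174% for the interaction. Cry1 and Nr1d1 had an unadjusted p under 0.05 between SD and LD at 8 wk, 2 of 10 against 14.1%.

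The sizes of the differences were modest and their errors wide. On its brightest probe, no clock transcript differed by 2-fold or more in group means in any comparison, while a dimmer Nr1d1 probe described below did so with age. The median difference of the 10 was -0.07 at 3 wk and 0.02 at 8 wk for SD minus LD, beside -0.05 and -0.01 over all transcripts tested. It was 0.12 for the age change in LD and 0.24 for the age change in SD, beside -0.04 and 0.00 over all transcripts. Without the block, the 95% interval of the difference stayed within 2-fold either way for 5 of 10 transcripts in each SD to LD comparison, for 6 in the LD age change and for 4 in the SD age change. With the block these numbers were 9 at 3 wk, 6 at 8 wk, 9 in the LD age change and 4 in the SD age change. For the rest, a 2-fold difference lies inside the interval, so where the threshold was missed, that does not show that the groups were alike. Per3 and Nr1d1 in the SD age change are among the rest, and with the block they passed the threshold.

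**Figure D2:**
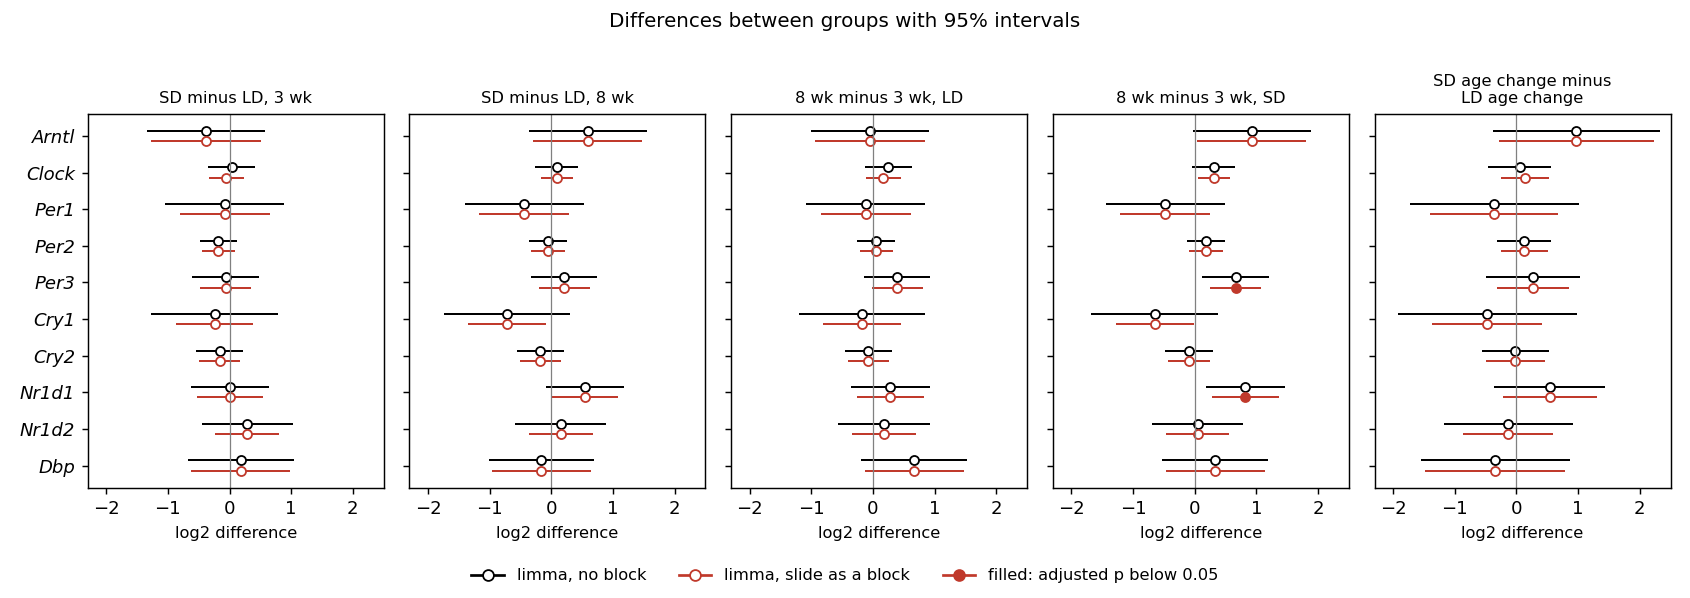
Each panel plots 1 comparison, with the log2 difference on the horizontal axis and the 10 transcripts as rows. Points are limma estimates and lines their 95% intervals, without the slide (black) and with the slide as a block (red), and the 2 filled points, Per3 and Nr1d1 in the SD age change with the block, have an adjusted p below 0.05.

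Arntl, one member of the activating pair, had one of the widest spreads of the set. Its levels in LD at 3 wk were 2.67, 1.96, 2.88 and 2.53 on slides 1 to 4, and in SD at 3 wk 2.62, 2.06, 2.15 and 1.67. At 8 wk they were 3.30, 2.28, 0.86 and 3.38 in LD and 3.10, 3.33, 2.18 and 3.57 in SD. The LD ovaries of 8 wk held the lowest of all 16 values next to some of the highest, and the groups overlapped in every comparison. From 3 to 8 wk in SD the mean went from 2.12 ± 0.39 to 3.05 ± 0.61 (SD, n = 4 each), a log2 difference of 0.92 with an SE of 0.45 and an interval of -0.03 to 1.88. The adjusted p was 0.270 without the block and 0.130 with it. Arntl was higher at 8 wk on all 4 slides in SD, by 0.03 to 1.91. In LD the age difference was -0.05, and without LD 8 wk replicate 3 it was 0.48. Likewise the Arntl difference between SD and LD at 8 wk was 0.59, and 0.06 without that hamster. The interaction was 0.97 with an SE of 0.64, the largest of the set, and without that hamster 0.44, with an adjusted p of 1.0 in both.

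Clock, the partner of Arntl, varied little on its brightest probe. At 3 wk its mean level was 1.99 ± 0.12 for LD (SD, n = 3, because the spot of replicate 1 was flagged as an outlier) and 2.02 ± 0.21 for SD (SD, n = 4). At 8 wk it was 2.24 ± 0.26 for LD and 2.33 ± 0.22 for SD (SD, n = 4 each). Over 15 arrays it ran from 1.76 to 2.58, a 1.76-fold range. In SD the individual levels were 2.27, 1.76, 2.10 and 1.96 at 3 wk and 2.58, 2.14, 2.15 and 2.43 at 8 wk, so the groups overlapped although each 8-wk value was above the 3-wk value of its slide. The SD age difference was 0.31 with an SE of 0.16 (adjusted p = 0.333), and with the block its adjusted p was 0.0875. The other 2 Clock probes gave 0.16 and 0.25 for the same difference. With slide differences left in, they spread more widely, with standard deviations in LD at 8 wk of 0.48 and 0.47, against 0.26 on the brightest probe. With the block the SE of the SD age difference was 0.11 and 0.15 on these probes, against 0.12 on the brightest. Between SD and LD the Clock difference was 0.03 at 3 wk and 0.09 at 8 wk, and at 8 wk its interval was -0.26 to 0.44. Since the slide 1 spot of LD at 3 wk is missing, the 3-wk difference changes with the block, to -0.05.

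Per1, a repressor gene that light switches on in the brain's clock, spread widely within every group. Its levels were 1.38, 2.28, 1.20 and 1.16 in LD at 3 wk and 0.56, 1.88, 2.38 and 0.89 in SD at 3 wk. At 8 wk they were 0.70, 1.31, 2.52 and 1.02 in LD and 1.25, 1.09, 1.53 and -0.06 in SD. The 4 groups overlapped, with the lowest value in SD at 8 wk and the highest in LD at 8 wk. Group means lay between 0.95 ± 0.70 in SD at 8 wk and 1.50 ± 0.53 in LD at 3 wk (SD, n = 4 each). The SD age difference was -0.48 with an SE of 0.46, and its interval of -1.44 to 0.49 includes a 2-fold fall. With 1 SD array left out it lay between -0.76 (replicate 1 of SD 3 wk left out) and -0.14 (replicate 4 of SD 8 wk left out).

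Per2, whose protein is a core part of the repressor complex, had the narrowest range of the set, 1.42-fold from 1.26 to 1.77 over the 16 arrays. At 3 wk the mean was 1.53 ± 0.20 for LD and 1.35 ± 0.07 for SD, and at 8 wk it was 1.59 ± 0.22 for LD and 1.54 ± 0.17 for SD (SD, n = 4 each). Its intervals were narrow: -0.49 to 0.13 for SD minus LD at 3 wk and -0.36 to 0.26 at 8 wk.

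Per3, a paralog with a smaller part in timekeeping, gave one of the 2 calls made with the slide block. Its probe was dim, with only 16.5% of transcripts tested at a lower mean level. Levels in SD at 3 wk were -4.09, -3.73, -3.38 and -3.96, and at 8 wk -2.98, -3.15, -2.82 and -3.54. The groups overlapped, since the SD 8 wk hamster of slide 4 was below the SD 3 wk hamster of slide 3, but the 8-wk value was higher on each of the 4 slides, by 0.41 to 1.11. The largest of these rises, 1.11, was on slide 1, where the SD 3 wk hamster had a Per3 intensity of only 16.0. The lowest level well above background on that array was -4.75, against -4.09 for Per3. The SD age difference was 0.67, 1.59-fold higher at 8 wk, with an SE of 0.25 and an adjusted p of 0.130 without the block. With the block the SE was 0.19 and the adjusted p 0.0238. When each array was left out in turn from the fit with the block, Per3 was called in 11 of 16 fits. It was no longer called without replicate 1, 2 or 4 of SD 3 wk, or without replicate 1 or 3 of SD 8 wk. In LD the levels were -4.46, -3.43, -3.49 and -3.52 at 3 wk and -3.44, -3.32, -2.95 and -3.61 at 8 wk, a difference of 0.39 with an SE of 0.25. The age changes of Per3 in SD and LD differed by 0.27 with an interval of -0.49 to 1.04.

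Cry1, a strong repressor of ARNTL and CLOCK, had the widest range of the set, 8.02-fold from -1.52 to 1.48. Its levels were 0.75, 0.39, -0.02 and 0.17 in LD at 3 wk and 0.98, -0.04, -0.23 and -0.39 in SD at 3 wk. At 8 wk they were 1.48, 0.40, -0.35 and -0.95 in LD and 0.60, -1.52, -0.40 and -0.94 in SD. In each group the hamster on slide 1 had the highest level, and slide 1 also had the lowest intensities overall; the part of the slide in this was not tested beyond the fit with the block. The 8-wk SD mean of -0.57 ± 0.90 was the lowest of the 4 and the LD mean at that age was 0.15 ± 1.05 (SD, n = 4 each). SD minus LD at 8 wk was -0.71 with an SE of 0.48 (adjusted p = 1.0), and with the block the SE was 0.29 and the adjusted p 0.278. On the slides this difference was -0.88, -1.93, -0.05 and 0.01, so it came mainly from slides 1 and 2. The second Cry1 probe gave -0.60 with an SE of 0.25, and with the block its adjusted p was 0.145. The SD age difference of Cry1 was -0.65 with an SE of 0.48, negative on all 4 slides, by -1.49 to -0.17, with an adjusted p of 0.547, or 0.135 with the block. Leaving out SD 8 wk replicate 2 gave -0.33, and leaving out replicate 1 of that group gave -1.04. The second Cry1 probe gave -0.34 for the SD age difference and was 0.31 higher at 8 wk on slide 3. On that probe all 4 SD ovaries of 3 wk (-0.74, -1.07, -1.40 and -1.36) were below all 4 LD ovaries of that age (-0.67, -0.68, -0.48 and -0.71), a difference of -0.51 with an adjusted p of 1.0, or 0.740 with the block. On the brightest probes, 0 of 10 clock transcripts had non-overlapping groups at 3 wk, against 1.71% of all transcripts.

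Cry2, the other cryptochrome repressor, stayed between -3.55 and -2.57, a 1.98-fold range. The 3-wk means were -2.98 ± 0.33 for LD and -3.14 ± 0.10 for SD, and the 8-wk means were -3.06 ± 0.08 for LD and -3.23 ± 0.28 for SD (SD, n = 4 each). The 4 pairwise differences ran from -0.17 to -0.07, and the interval for SD minus LD at 8 wk was -0.56 to 0.21.

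Nr1d1, the receptor that represses Arntl, gave the other call made with the slide block. Levels in SD were -0.39, 0.02, 0.43 and 0.38 at 3 wk and 0.67, 1.28, 0.94 and 0.86 at 8 wk. All 4 SD ovaries of 8 wk were above all 4 SD ovaries of 3 wk; Nr1d1 was the one clock transcript whose SD age groups did not overlap, 1 of 10 against 15.9% of all transcripts. The mean went from 0.11 ± 0.38 to 0.94 ± 0.25 (SD, n = 4 each), a 1.77-fold difference of 0.82 with an SE of 0.30 and an interval of 0.19 to 1.46. The adjusted p was 0.108 without the block, and 0.0298 with it, where the SE was 0.25. Within slides the difference was 0.48 to 1.26. When each array was left out in turn from the fit with the block, Nr1d1 was called in 11 of 16 fits, and not without replicate 1, 2 or 3 of SD 3 wk or replicate 1 or 2 of SD 8 wk.

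In LD the Nr1d1 levels were 0.28, -0.19, 0.23 and 0.10 at 3 wk and -0.60, 0.19, 1.21 and 0.75 at 8 wk. At 8 wk 1 LD ovary sample was below all LD samples of 3 wk and 2 were above them all. The LD age difference was 0.28 with an SE of 0.30, and 0.01 without LD 8 wk replicate 3. The SD and LD age changes of Nr1d1 differed by 0.54 with an SE of 0.42 and an interval of -0.36 to 1.44, so a difference between them was not shown. At 8 wk SD exceeded LD by 0.55 with an SE of 0.30, an adjusted p of 0.893 without the block and 0.340 with it. Without LD 8 wk replicate 3 this was 0.82 in the fit without the block, with an adjusted p of 0.275. The fit with the block, whose estimate is not the same once an array is missing, gave an adjusted p of 0.135.

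The array held 3 detected probes for Nr1d1, and they differed in the size of the age difference. In SD the 2 dimmer probes read 0.93 and 1.21 higher at 8 wk, and in both the SD age groups did not overlap. Their adjusted p with the block was 0.0450 and 0.0634. In LD the age differences were 0.60 and 1.32 for these probes, against 0.28 for the brightest. The dimmest probe read -0.62, -1.52, -1.44 and -1.34 in LD at 3 wk and -1.24, -0.34, 1.82 and 0.14 at 8 wk. Thus all 3 probes were higher at 8 wk in SD, while the LD difference ran from 0.28 to 1.32 depending on the probe, and none of the 3 LD differences passed the threshold in either fit. Without LD 8 wk replicate 3 these LD differences were 0.01, 0.23 and 0.75, from the brightest probe to the dimmest.

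**Figure D3:**
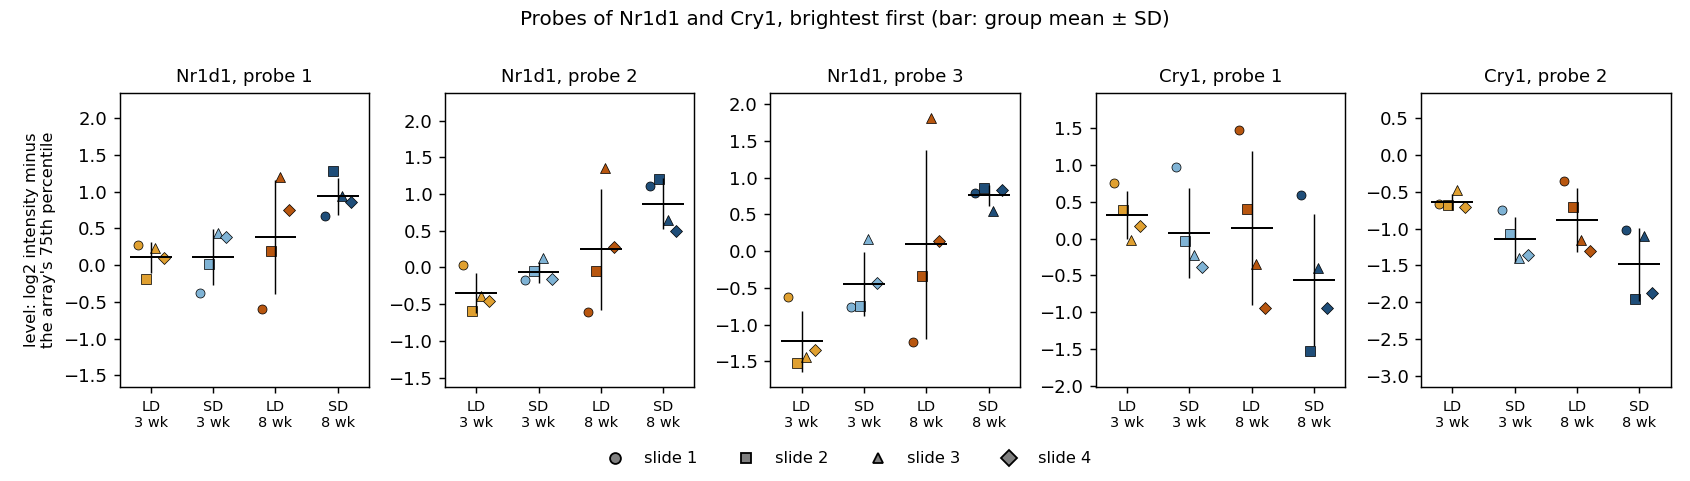
The panels plot the level (log2 intensity minus the array's 75th percentile) of the 3 detected Nr1d1 probes and the 2 detected Cry1 probes in each hamster, by group. Symbols mark the slide, bars the mean and lines the SD, and on each Nr1d1 probe the SD 8 wk values lie above all SD 3 wk values.

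Nr1d2, the paralog of Nr1d1, had a SD age difference near 0. Its levels in SD were 4.69, 4.24, 4.23 and 3.91 at 3 wk and 4.96, 4.33, 4.23 and 3.75 at 8 wk, and the difference was 0.05 with an SE of 0.35 and an interval of -0.69 to 0.79. The values of the 2 ages lay side by side on every slide, within 0.27 of each other. In LD they were 4.997, 3.82, 3.42 and 3.69 at 3 wk and 4.30, 4.08, 4.85 and 3.42 at 8 wk, a difference of 0.18. Whether Nr1d1 and Nr1d2 differ in their age change was not tested.

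Dbp, an output transcription factor with one of the steepest daily rhythms in most tissues, spread most widely in the LD ovaries of 8 wk. Its levels in LD were 1.54, 1.40, 1.14 and 1.31 at 3 wk and 0.88, 1.96, 3.58 and 1.66 at 8 wk. In SD they were 0.94, 1.75, 1.64 and 1.78 at 3 wk and 1.98, 1.90, 2.28 and 1.29 at 8 wk. The LD ovaries of 8 wk held both the lowest and the highest of the 16 values, a 6.50-fold range. The LD age difference was 0.67 with an SE of 0.40 (adjusted p = 0.555, or 0.280 with the block), and without LD 8 wk replicate 3 it was 0.15. In SD the age difference was 0.33 with an SE of 0.40.

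Hamsters of the same group differed more in several clock transcripts than in most transcripts. After the slide and group means were removed, the residual SD between hamsters was 0.68 for Arntl, 0.61 for Dbp, 0.56 for Per1 and 0.48 for Cry1 on the log2 scale. These 4 were above the 90th percentile of all transcripts tested, which was 0.44, while the median over all transcripts was 0.21. Arntl had a larger residual SD than 97.7% of transcripts, Dbp than 96.5%, Per1 than 95.2% and Cry1 than 92.2%. Nr1d1 (0.40) and Nr1d2 (0.39) were above 87.4% and 86.3%, and Per3 (0.28) above 71.8%. Clock and Per2 were below the median, with 0.16 and 0.17 and ranks of 30.01% and 36.4%, and Cry2 (0.22) was just above it at 53.6%. Among the 2000 transcripts nearest in level, the ranks of Arntl, Dbp and Per1 were 98.8%, 98.0% and 96.9%. With the group means alone removed, the ranks of Cry1, Per1, Arntl and Dbp were 95.3%, 94.0%, 93.7% and 90.6%. Those of the others then ran from 84.2% for Nr1d2 and 75.2% for Nr1d1 through 56.6% for Per3 to 19.7% for Cry2, 17.8% for Clock and 8.67% for Per2. For Arntl, Dbp and Nr1d2 the largest deviation from the slide and group means was that of LD 8 wk replicate 3 (-1.08, 1.09 and 0.69). The residual SDs of these transcripts therefore rest in part on that hamster, and they were not computed without it. This is a description of the 16 arrays, with no test.

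**Figure D4:**
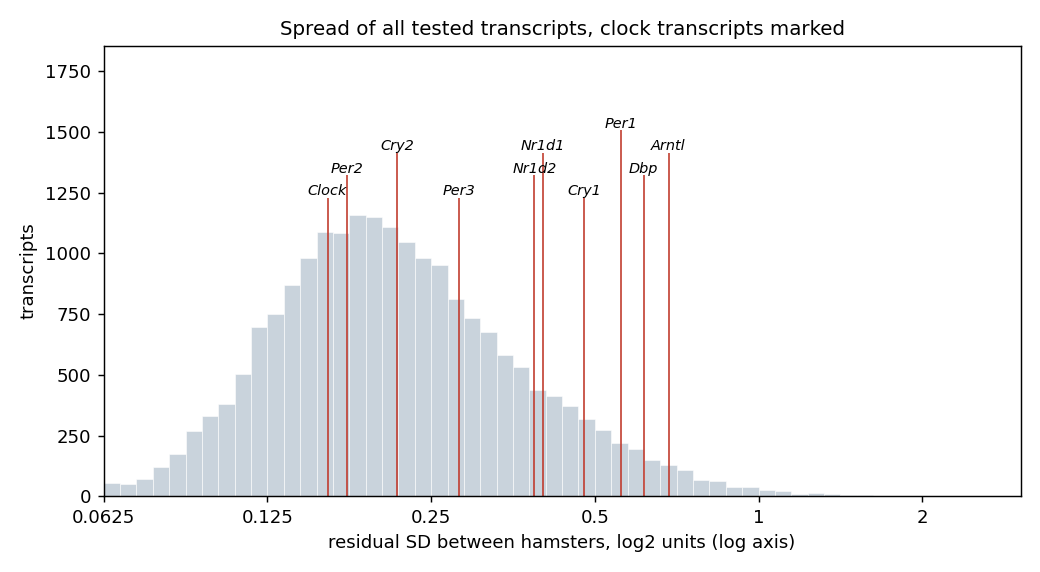
The grey bars count all tested transcripts by the residual SD between hamsters after slide and group means were removed (horizontal axis, log2 units on a log axis). Red lines mark the 10 clock transcripts, of which 8 lie above the median of 0.21 and 4, Arntl, Dbp, Per1 and Cry1, lie above the 90th percentile of 0.44.

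LD 8 wk replicate 3 had the lowest Arntl level of the 16 arrays, the highest Dbp and Per1 levels, and the highest Nr1d1 and Nr1d2 levels of its group. It was singled out after its values were seen, because several differences above change without it. From the slide and group means, its deviation was -1.08 for Arntl, 1.09 for Dbp, 0.69 for Nr1d2, 0.55 for Per1 and 0.50 for Nr1d1. Its array was not unusual in brightness: the 75th percentile was 996 and 66.5% of probes were well above background. None of its values met Dixon's criterion for a value standing apart in its group. Other hamsters also held extreme values: LD 8 wk replicate 1 was the highest of all arrays for 1 clock transcript (Cry1) and the lowest for 3 (Per2, Nr1d1 and Dbp). Because deviations sum to 0 within each slide and within each group, a large deviation of 1 hamster moves those of its slide and group the other way.

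Across the 16 hamsters, the deviations of the clock transcripts from their slide and group means were correlated pair by pair, which gave 45 pairs. Each transcript entered by its brightest probe, and correlations with the dimmer Nr1d1, Cry1 and Clock probes were not computed. With 100000 permutations of the deviations as they stood, 12 pairs had an adjusted p under 0.05, of which 6 were positive, and 5 pairs did so by Spearman's rho. That permutation takes no account of the slide and group means fitted to the data. When these means were removed again in each resample, 1 pair was left, Nr1d2 with Dbp.

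Nr1d2 and Dbp deviated in the same direction, with r = 0.917 (permutation p = 2e-05) and rho = 0.856 (permutation p = 7e-05). The adjusted p was 0.00045 for r and 0.00315 for rho, and 0.009 for r when the means were removed again. Without the 2 hamsters farthest from the median in Nr1d2 r was 0.841, and without LD 8 wk replicate 3 it was 0.780. As a description across transcripts, which are not independent, 99.9% of transcripts had a lower r to Dbp than Nr1d2 had.

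Arntl and Dbp deviated in opposite directions, with r = -0.840 and rho = -0.779 (permutation p = 0.00059). The adjusted p for r was 0.00045, and that for rho 0.0133. It was 0.0538 for r with the means removed again, just above the threshold. Without the 2 hamsters farthest from the median in Arntl r was -0.704. Without LD 8 wk replicate 3 it was -0.655, with an adjusted p of 0.0739. Only 0.0697% of transcripts had a lower r to Arntl than Dbp had. With the slide means alone removed, so that group differences stayed in, r was -0.507, with an adjusted p of 0.202.

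Arntl and Nr1d2 gave r = -0.767 and rho = -0.635 (permutation p = 0.00047 and 0.00957). The adjusted p was 0.00529 for r, 0.0615 for rho, and 0.105 for r with the means removed again. It rested in part on the extremes, since r was -0.521 without the 2 hamsters farthest in Arntl and -0.489 without LD 8 wk replicate 3. Cry1 and Nr1d1 gave r = -0.785 and rho = -0.762 (permutation p = 0.00035 and 0.00091). Here the adjusted p was 0.00525 for r and 0.0136 for rho, and 0.104 for r with the means removed again. The relation was as large without the 2 hamsters farthest in Cry1 (r = -0.778) and without LD 8 wk replicate 3 (r = -0.811). With the slide means alone removed, so that group differences stayed in, r was -0.858. The adjusted p was then 0.0009 by the permutation as first computed. The other 8 pairs past the threshold as first computed were spread over the set, with no adjusted p under 0.05 once the means were removed again. Positive among them were Nr1d1 with Dbp (r = 0.735), Nr1d1 with Nr1d2 (r = 0.724), Per1 with Dbp (r = 0.694), Per2 with Nr1d1 (r = 0.683) and Per1 with Nr1d2 (r = 0.630). Negative were pairs of repressors: Per2 with Per3 (r = -0.698), Per3 with Cry2 (r = -0.638) and Per2 with Cry1 (r = -0.602). Per2 with Per3 had an adjusted p of 0.0166, and 0.0220 without LD 8 wk replicate 3, where r was -0.750. Both come from the permutation as first computed, and the adjusted p was 0.150 over all arrays with the means removed again. With the slide means alone removed, that pair gave r = -0.06. Without that hamster, 3 pairs passed by the permutation as first computed: Nr1d2 with Dbp, Cry1 with Nr1d1, and Per2 with Per3. Removing the means again in each resample was not tried without that hamster. Arntl and Nr1d1 were weakly related, with r = -0.305 (adjusted p = 0.419), and Arntl and Clock gave r = 0.234 over 15 arrays (adjusted p = 0.548).

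**Figure D5:**
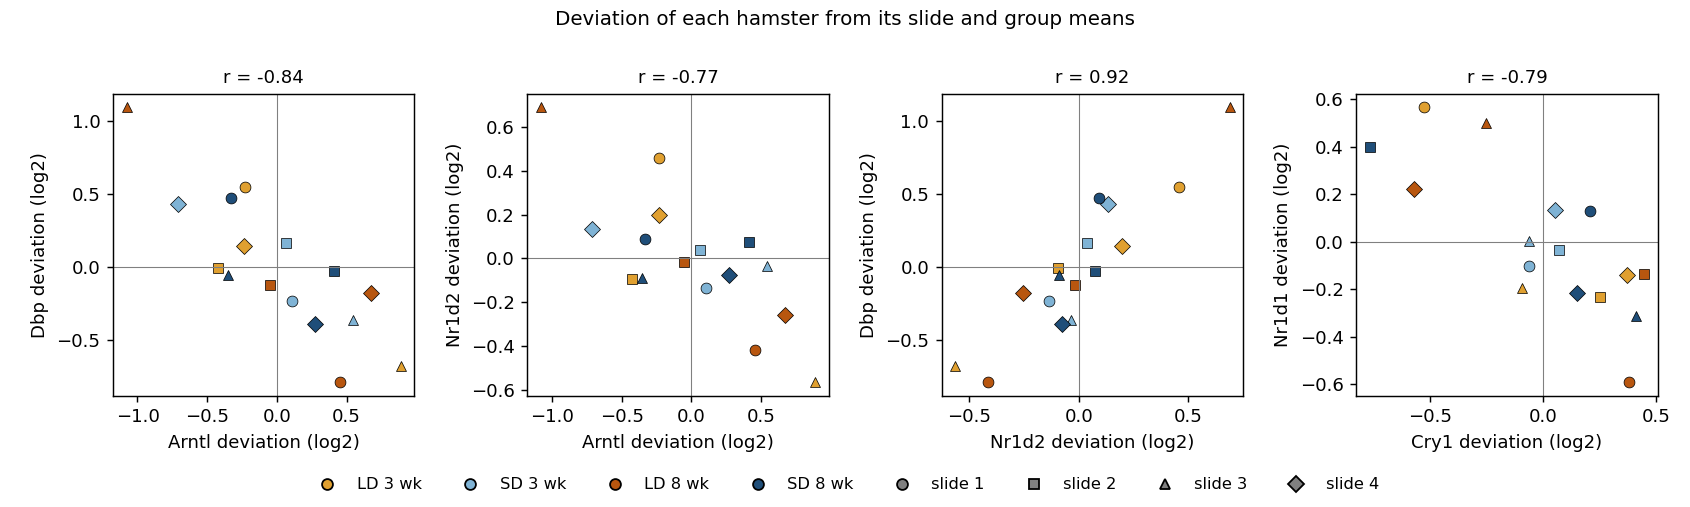
The panels plot the deviation of each hamster from its slide and group means (log2 units) for 4 pairs of clock transcripts. Colours mark the group and symbols the slide. Arntl is low where Dbp (r = -0.84) and Nr1d2 (r = -0.77) are high, Nr1d2 and Dbp are high together (r = 0.92), and Cry1 is low where Nr1d1 is high (r = -0.79), with LD 8 wk replicate 3 at an end of the first 3 panels.

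The transcripts outside the set with the most similar pattern were found for the 3 clock transcripts with the largest range of group means. Over 16 arrays, on deviations from the slide mean, and out of 18637 others, Arntl was nearest to the identifier NM_010836 (r = 0.876), Cry1 to NM_026945 (r = 0.895) and Nr1d1 to BC006833 (r = 0.974). These are the highest of many correlations and are given as a description.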

How the data were processed

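Per the labels' protocols, RNA of both ovaries of each hamster was amplified and labelled with Cy3. Per the file headers, the authors used Agilent Feature Extraction 10.5.1.1, and the deposited intensity is its processed signal, corrected for background on each array alone. A value table that the authors deposited repeats this intensity, linear and uncentred (column medians from 26.6 to 91.5). It matched to 0.5% in all but 4 cells and served as an alternative. Animal codes in the labels differ between samples, so each array was treated as a different hamster.

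From these, log2 intensity minus each array's 75th percentile was computed, without control and outlier spots, averaging spots of a probe. Probes entered if some group had all 4 arrays well above background, with values on 12 or more arrays and on no fewer than 2 per group and per slide. Each identifier was represented by its brightest probe. Comparisons used limma 3.58.1 in R 4.3.3 (lmFit, eBayes with trend) over all 16 arrays, with Benjamini-Hochberg adjustment over 20141 identifiers and a threshold of 0.05. The code was tested on simulated data. The pairing by slide comes from the file headers: same-slide arrays deviated from their group means together (correlation 0.451 in the median, 0.224 at the lowest), so the fit with slide as a block is given where it changed a call. The members, lists and tests were chosen with earlier results of these data known. All 10 members were to be named. A list of further clock genes and lists of ovarian cell type markers were not matched to the array and give no result. For pattern likeness, the rule names the nearest transcript of the 3 members with the largest range of group means. Alternatives covered scaling, background correction, filters, probes, trend, array weights, the slide and leaving out each array. The normexp correction planned on mean signals was run on median signals with an offset of 50. Precision is limited by the number of arrays.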

Additional observations from a re-analysis of the deposited data

Results flagged for a closer look

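Of 39 sets of 4 hamsters, 1 for each clock transcript and group but the LD 3 wk group of Clock, 1 had a hamster standing apart by Dixon's criterion, and chance gives about 1 in 20. It was Per3 in LD at 3 wk, where replicate 1 had a level of -4.46 and the other 3 hamsters lay between -3.52 and -3.43. The lowest level well above background on that replicate's array was -4.81. This array is on slide 1, whose SD 3 wk hamster also had the lowest Per3 level of its group (-4.09). Whether the slide or its lower intensity bears on this was not tested.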

How the results depend on the processing

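Under 47 alternatives to limma's fit, 31 of them planned, the 10 clock transcripts in 5 comparisons gave 2340 values, of which 0 reversed a call and 32 passed the threshold where the fit without the block did not. In 26 of 50 cases the sign turned under some alternative, with neither value called. All added calls lay in the SD age change, where 0 clock transcripts were called in the fit reported. The replicate block gave 2 (Per3 and Nr1d1), as did slide as a random block; array weights gave 1 and fitting only the groups compared gave 1, in both cases Nr1d1. Leaving out each array in turn gave 0 to 1, the 1 being Nr1d1 without LD 8 wk replicate 1. The block was planned, but leaving out each array from the fit with the block was chosen after seeing the data. That gave 0 to 3 calls, adding Arntl without LD 8 wk replicate 3 and Clock without replicate 2 of LD 8 wk or replicate 3 of SD 3 wk. The block changed no other call. Normexp moved the median of all transcripts in the SD age change from 0.00 to 0.17, and Per3 and Nr1d1 were then 0.49 and 0.48. Of the pair correlations, 12 passed as first computed and 10 after quantile normalization. The count was 2 with only slide means removed, namely Nr1d2 with Dbp and Cry1 with Nr1d1. In alternatives chosen after seeing the data, it was 1 with the means removed again in each resample and 3 without LD 8 wk replicate 3. Those 3 pairs passed by the permutation as first computed, which takes no account of the means fitted. All 15 detected probes of the clock transcripts were well above background on every array.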
